A study of Homo sapiens with 8 samples.

Results

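Integrins are the receptors that tie a cell to the matrix around it, and focal adhesions are the plaques of adaptor proteins and kinases that link them to actin. The genes described here were chosen by name from the authors' deposited table: every symbol of the ITGA and ITGB families that the rule matched (18 alpha and 8 beta subunits), together with 20 listed adaptors and kinases. These 46 genes, of 23346 in the table, were measured by RNA sequencing in 8 replicate samples of hCMEC/D3. This established human line was derived from endothelium of small brain vessels and is used to model the blood-brain barrier. All 8 samples belonged to 1 group, with no treatment, time or genotype named, so no conditions could be compared. The labels did not say whether the replicates were separate cultures. Every p-value below therefore rests only on the spread between these samples, which may be technical.

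An integrin is a pair of transmembrane subunits, an alpha and a beta, and the pairing decides which matrix protein is bound. Subunits that pair with ITGB1 include receptors for fibronectin, laminins and collagens, whereas ITGAV joins several beta subunits to bind ligands with an arginine-glycine-aspartate sequence, and ITGB2 and ITGB7 serve leukocytes. Talins and kindlins bind the beta tail and switch the receptor on, vinculin and zyxin strengthen the link to actin, and the kinases PTK2 and SRC pass the signal on through paxillin and BCAR1. In brain vessels these receptors hold the endothelium on its basement membrane.

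The 8 libraries held 69388544 to 90205244 counts, all of them even numbers, or 34694272 to 45102622 read pairs. Levels are given as CPM, which are counts over a common library total, scaled between libraries by edgeR's trimmed mean of M-values, and for comparisons between genes as CPM per kilobase of transcript (RPKM). The 8 libraries differed in how counts followed transcript length: the slope of log2 CPM (as a difference from each gene's mean) per doubling of length was -0.24, -0.11 and -0.36 in replicates 2, 7 and 8 and 0.09 to 0.16 in the other replicates. Of the marker lists for the cell line, 8 of 8 endothelial genes were detected, with a sum of 2023 to 4050 CPM. The leukocyte list had 2 of 8 detected genes (48.97 to 87.3 CPM in sum, mostly CD68), the mural list 5 of 8 (47.3 to 74.2 CPM), the epithelial list 2 of 8 (27.0 to 38.5 CPM) and the platelet list 0 of 7 (2.06 to 4.87 CPM). In replicates 2, 7 and 8 the leukocyte sum was 60.9 to 87.3 CPM, against 48.97 to 55.1 CPM in the others. The epithelial sum, mostly KRT8 (mean 26.1 CPM), was likewise higher there (32.0 to 38.5 against 27.0 to 31.1 CPM). EPCAM and CDH1 were lowest in replicate 8 (0.402 and 0.189 CPM), and EPCAM was highest in replicate 7 (1.53 CPM). The platelet sum was lower in replicates 2, 7 and 8 (2.06 to 3.48 against 3.70 to 4.87 CPM). The endothelial sum overlapped (2339 to 4050 against 2023 to 2888 CPM), as did the mural sum (47.3 to 70.6 against 68.2 to 74.2 CPM). In bulk RNA, fewer cells of a type and less RNA per cell cannot be told apart. The part of the libraries' trends with transcript length in these sums was not tested.

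The promoters of 5 members are shown. ITGA5 and ITGB1 led their classes, and ITGAV varied beyond the trend of its abundance. ZYX and VCL had the highest mean RPKM of the adaptors, and on CPM they differed between libraries in opposite directions. All 5 were picked for these traits, after their levels were seen. Each is the 250 bases before the gene's start farthest upstream in RefSeq (GRCh38.p14), read 5′ to 3′ on the strand of the gene, with capitals marking matches on either strand to 6 motifs. The letters searched were GGGCGG as the GC box, CCAAT as the CCAAT box, TATAAA as the TATA box, TGACTCA as the AP-1 site, CCGGAA as the ETS core and the CArG box by its usual pattern, and matches of a motif were allowed to overlap. The ITGA5 stretch is chr12:54419267-54419516 (minus strand), ITGAV is chr2:186589806-186590055 (plus), ITGB1 is chr10:32958231-32958480 (minus), VCL is chr10:73997866-73998115 (plus) and ZYX is chr7:143381095-143381344 (plus).
ITGA5: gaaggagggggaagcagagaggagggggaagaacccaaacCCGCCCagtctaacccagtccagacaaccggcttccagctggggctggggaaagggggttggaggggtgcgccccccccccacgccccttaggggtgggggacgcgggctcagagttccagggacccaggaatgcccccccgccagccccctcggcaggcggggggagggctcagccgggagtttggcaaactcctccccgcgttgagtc
ITGAV: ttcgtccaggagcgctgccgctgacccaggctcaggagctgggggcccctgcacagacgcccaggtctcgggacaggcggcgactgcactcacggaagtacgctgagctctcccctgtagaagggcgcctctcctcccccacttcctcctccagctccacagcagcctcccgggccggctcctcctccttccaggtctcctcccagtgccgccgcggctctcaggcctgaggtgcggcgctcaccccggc
ITGB1: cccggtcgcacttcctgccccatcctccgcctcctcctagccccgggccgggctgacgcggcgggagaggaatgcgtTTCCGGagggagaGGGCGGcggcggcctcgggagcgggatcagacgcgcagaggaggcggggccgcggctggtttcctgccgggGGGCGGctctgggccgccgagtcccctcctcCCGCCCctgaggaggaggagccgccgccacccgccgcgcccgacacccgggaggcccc
VCL: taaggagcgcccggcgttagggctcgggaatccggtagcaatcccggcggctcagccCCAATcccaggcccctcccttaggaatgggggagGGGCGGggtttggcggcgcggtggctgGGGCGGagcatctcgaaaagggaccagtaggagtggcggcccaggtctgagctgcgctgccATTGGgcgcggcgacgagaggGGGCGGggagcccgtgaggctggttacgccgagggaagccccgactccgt
ZYX: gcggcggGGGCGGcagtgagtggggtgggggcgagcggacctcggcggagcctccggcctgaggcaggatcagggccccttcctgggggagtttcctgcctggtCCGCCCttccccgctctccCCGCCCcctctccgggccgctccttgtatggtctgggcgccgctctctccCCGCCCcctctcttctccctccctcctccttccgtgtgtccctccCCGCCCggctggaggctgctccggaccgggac

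ZYX held 5 GC boxes, at 243, 146, 127, 77 and 32 bases before the start, and ITGB1 held 3 with an ETS core at 173 bases. VCL held 3 GC boxes and 2 CCAAT boxes, ITGA5 a single GC box at 210 bases, and the ITGAV window held none of the 6 motifs. A RefSeq promoter was matched for 32 of the 46 genes. The GC box occurred in 18 of these 32 (56.3%), against 42.2% of all 27305 promoters of the same length. CCAAT occurred in 6 of 32 (18.8%), against 33.0% of all promoters. The ETS core occurred in 5 (CRK, ILK, ITGB1, ITGB5 and TLN1), or 15.6% against 14.8%. TATAAA was found only in ITGA6, 32 bases before the start, the AP-1 letters only in BCAR1 and the CArG box only in ITGB6 among the 32, where the shares over all promoters were 11.2%, 4.15% and 1.15%. These are matches of letters and no binding was measured. The promoters of FERMT1, ITGA3, ITGA7, ITGA9, ITGAD, ITGAL, ITGAX, ITGB2, ITGB3, ITGB4, PARVA, PTK2, PTK2B and SRC were not analysed here.

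A gene was called detected when it reached 1 CPM in all 8 libraries. By this rule 35 of the 46 members were detected (76.1%), against 51.3% of all genes in the table. All 20 adaptors and kinases passed, with 10 of 18 alpha subunits and 5 of 8 beta subunits. The undetected members were ITGA2B, ITGA4, ITGA8, ITGA9, ITGAD, ITGAL, ITGAM, ITGAX, ITGB6, ITGB7 and ITGB8. The median RPKM of the detected members was 21.4, against 11.3 over all detected genes with a length. The count depended on the threshold: 40 members reached 0.5 CPM, 42 reached 10 counts and 31 reached an RPKM of 1 in every library. The last rule left out FERMT1, ITGA11, ITGB2 and TLN2, so not all adaptors passed it.

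**Figure D1:**
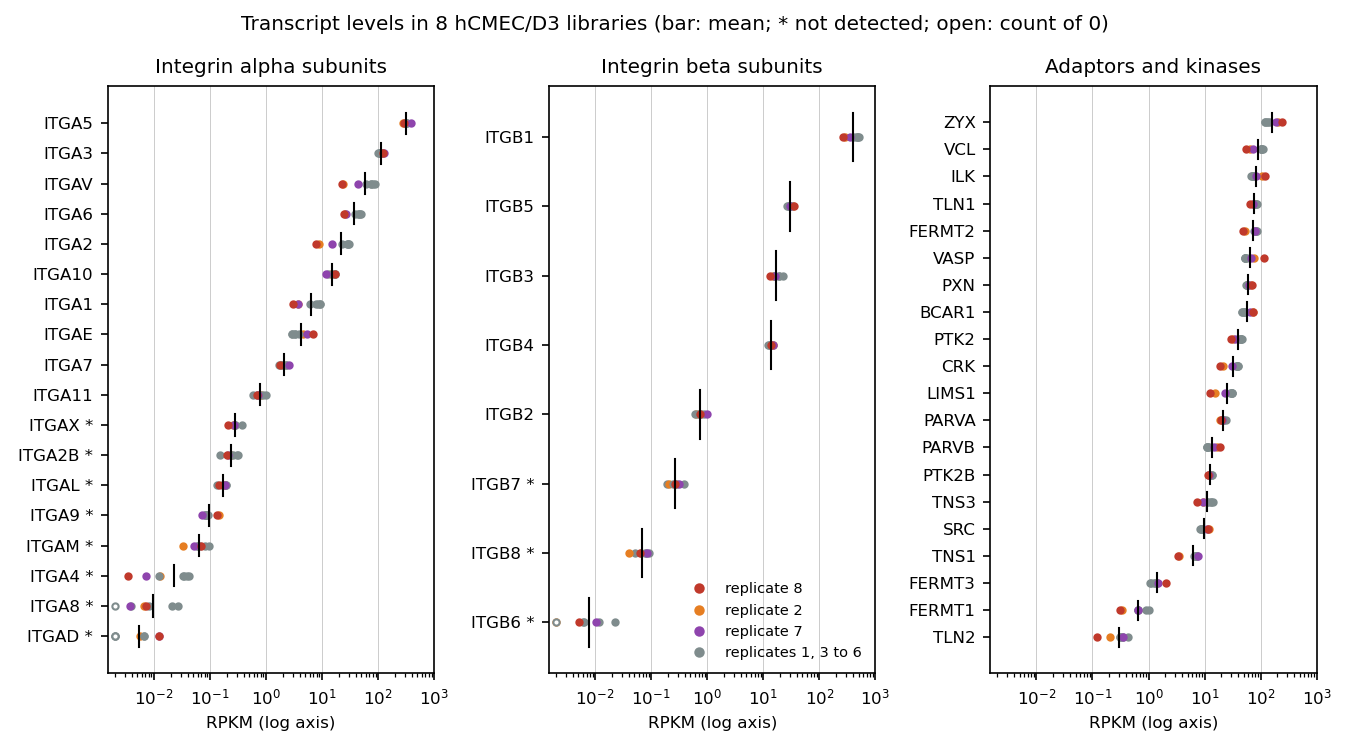
Transcript level (RPKM, log axis) of the 46 genes in 8 libraries, by class; points are libraries, the bar is the mean, an asterisk marks a gene that was not detected and an open point at the left edge a count of 0. ITGA5 and ITGB1 lie to the right of every other subunit of their class in all 8 libraries, and ZYX leads the adaptors.

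Among the alpha subunits, ITGA5, the fibronectin-binding partner of ITGB1, was the most abundant. Its gene spans chr12:54789045-54813050 on the minus strand (GRCh37), and its canonical transcript has 30 exons. In replicates 1 to 8 it reached 1392, 1193, 1338, 1346, 1304, 1338, 1637 and 1246 CPM. Replicate 7 stood highest and the other 7 libraries lay within a narrow band. Per length its level was 317 ± 31.1 RPKM (SD, n = 8), which was 55.1% ± 3.79 of the summed RPKM of the 18 alpha subunits.

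ITGA3, a laminin receptor subunit (chr17:48133340-48167849), followed at 113 ± 9.89 RPKM, with 478 to 631 CPM. Its share of the alpha sum was 19.8% ± 3.18, and its range overlapped neither that of ITGA5 above nor that of ITGAV below. ITGAV, the shared partner of several beta subunits (chr2:187454790-187545628, plus strand, 30 exons), had a mean of 58.6 ± 25.6 RPKM. ITGA6, another laminin-binding subunit (chr2:173292314-173371181), had 37.7 ± 10.4 RPKM, with 251, 147, 284, 267, 226, 278, 157 and 144 CPM in replicates 1 to 8. ITGAV exceeded ITGA6 in 6 of 8 libraries with overlapping ranges, so their order was not fixed across libraries.

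The collagen-binding subunits were lower. ITGA2 (chr5:52285156-52390609) stood at 21.4 ± 9.48 RPKM, ITGA10 (chr1:145524990-145543868) at 15.1 ± 2.02, ITGA1 (chr5:52084136-52249485) at 6.38 ± 2.61 and ITGA11 at 0.767 ± 0.128 RPKM. ITGA2 exceeded ITGA10 in 6 of 8 libraries with overlapping ranges, whereas ITGA10 exceeded ITGA1 in 8 of 8 without overlap. The gene ITGA10 overlaps 5 other listed genes and ITGA1 contains PELO, and the library kit does not mark strand, so reads in the shared stretches cannot be assigned with certainty.

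ITGAE, which pairs with ITGB7 on lymphocytes in mucosa, was detected at 4.15 ± 1.37 RPKM although ITGB7 was not. Its median was 13.7 CPM, and it was highest in replicates 8, 7 and 2, at 25.9, 20.5 and 17.4 CPM. The gene contains GSG2, so part of these counts may belong to it, and that part was not tested. The leukocyte marker sum was also highest in replicates 8, 2 and 7, and nearly all of it was CD68 (84.5 CPM in replicate 8). PTPRC, the defining leukocyte gene, was at 0.142, 0.288 and 0.560 CPM in replicates 8, 2 and 7. In the others it was at 0.337 to 0.606 CPM. Such levels rest on few read pairs, and a leukocyte source of ITGAE was not tested. ITGA7, the laminin receptor subunit of muscle, stood at 2.05 ± 0.295 RPKM and overlaps METTL7B.

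The subunits that define leukocyte and platelet integrins were near the bottom. ITGAX had 1.30 ± 0.221 CPM and missed the threshold through replicate 8 alone, at 0.970 CPM, and ITGAL had 0.886 ± 0.115 CPM. ITGAM had 0.305 ± 0.0884 CPM and the platelet subunit ITGA2B 0.834 ± 0.190 CPM. ITGA9 was at 0.762 ± 0.212 CPM and ITGA4, the alpha subunit of the VCAM1 receptor, at 0.156 ± 0.105 CPM. ITGA8 was counted in 7 of 8 libraries, at 0.176 CPM or less, with 0 counts in replicate 6, where up to 0.0840 CPM is allowed by a limit of 3 read pairs. ITGAD had 0 counts in replicates 1, 4 and 6, with limits of 0.0880, 0.0826 and 0.0840 CPM. These limits cover counting error only.

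ITGB1, the beta subunit shared by most matrix receptors, led its class by far. It spans chr10:33189246-33247293 on the minus strand, with 16 exons in the canonical transcript. Its levels in replicates 1 to 8 were 1897, 1093, 1735, 1750, 1561, 1813, 1304 and 970 CPM. Replicates 2, 7 and 8 were the 3 lowest. Per length it stood at 406 ± 93.8 RPKM and held 86.1% ± 3.33 of the summed RPKM of the 8 beta subunits.

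ITGB5, a vitronectin receptor subunit that pairs with ITGAV (chr3:124481795-124606144), came next at 30.4 ± 2.87 RPKM, with 119 to 155 CPM. ITGB3, the other main vitronectin receptor subunit (chr17:45331208-45390077), had 17.1 ± 3.02 RPKM, with 79.0 CPM in replicate 8, a median of 95.6 and 136 CPM in replicate 1. ITGB4, the hemidesmosome partner of ITGA6 (chr17:73717516-73753899), stood at 13.9 ± 1.21 RPKM. ITGB5 lay above ITGB3 in every library without overlap, and ITGB3 above ITGB4 in 6 of 8 with overlap. ITGB2, the leukocyte beta subunit, was detected at only 2.11 ± 0.356 CPM, or 0.753 ± 0.127 RPKM. ITGB7 (0.754 ± 0.173 CPM), ITGB8 (0.621 ± 0.156 CPM) and the epithelial ITGB6 (0.0362 ± 0.0341 CPM) were not detected, and ITGB6 had 0 counts in replicates 2 and 5, with limits of 0.0665 and 0.0777 CPM.

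The talins connect the beta tail to actin. TLN1 (chr9:35697334-35732392, 57 exons) was measured at 756, 639, 682, 722, 663, 715, 629 and 550 CPM in replicates 1 to 8, or 77.6 ± 7.53 RPKM. Its lowest value was in replicate 8 and the spread was small. TLN2, the second talin gene, had 1.42 to 5.26 CPM, with a median of 3.88, and 0.303 ± 0.0977 RPKM. The table's span for TLN2 (chr15:62939510-63136829) begins inside the gene of the annotation, so its counts may miss the first exons.

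FERMT2, the kindlin of adherent cells in general, stood at 73.6 ± 15.1 RPKM, with 157 to 284 CPM and a median of 265. The other kindlins were low. FERMT3, the kindlin of blood cells, had 1.39 ± 0.310 RPKM and FERMT1, the kindlin of epithelia, 0.642 ± 0.240 RPKM. FERMT3 lay above FERMT1 in 8 of 8 libraries without overlap, and was highest in replicate 8 at 5.18 CPM. The gene FERMT3 overlaps TRPT1, so part of its counts may belong to TRPT1, and that part was not tested.

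ZYX, a LIM-domain protein that gathers at tensed adhesions and stress fibres (chr7:143078360-143088206), was the most abundant adaptor at 160 ± 44.7 RPKM. From replicate 1 to 8 it was measured at 263, 458, 268, 287, 325, 302, 420 and 529 CPM, highest in replicates 8, 2 and 7. VCL, vinculin (chr10:75757872-75879914), differed the other way in the same 3 libraries, at 606, 363, 562, 561, 549, 572, 404 and 306 CPM, or 89.2 ± 20.8 RPKM. Replicates 2, 7 and 8 were its 3 lowest. Below ZYX, which exceeded VCL in 8 of 8 libraries, the adaptors from VCL through ILK, TLN1, FERMT2, VASP and PXN to BCAR1 had overlapping neighbours, so their order in RPKM was not separated by the spread between libraries.

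The ILK, PINCH and parvin complex is a pseudokinase scaffold at the beta tail. ILK (chr11:6624964-6632099), whose gene overlaps TAF10, stood at 83.3 ± 19.3 RPKM. Its 2 highest values, 210 and 189 CPM, were in replicates 8 and 2. LIMS1, which encodes PINCH, had 25.2 ± 7.54 RPKM and its 2 lowest values, 53.8 and 66.9 CPM, in the same replicates 8 and 2. LIMS1 has near-identical copies in the genome, so its level is uncertain. PARVA (21.2 ± 1.61 RPKM, 165 to 209 CPM) was steady, and PARVB (13.3 ± 2.99 RPKM) ranged from 59.1 CPM to 102 CPM in replicate 8.

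PXN, the paxillin scaffold, was measured at 60.4 ± 6.00 RPKM and BCAR1, the substrate scaffold of SRC, at 57.3 ± 11.6 RPKM. VASP, an actin filament elongation factor, reached 65.4 ± 21.3 RPKM with a median of 122 CPM and 254 CPM in replicate 8. CRK, an adaptor that docks on BCAR1, had 32.4 ± 8.24 RPKM, with 71.7 and 81.1 CPM in replicates 8 and 2 and 118 to 152 CPM in the others. The tensins, which bind beta tails at fibrillar adhesions, were lower, with TNS3 at 11.2 ± 2.32 and TNS1 at 6.19 ± 1.74 RPKM. Among the kinases, PTK2, focal adhesion kinase, stood at 39.8 ± 6.69 RPKM, its relative PTK2B at 12.5 ± 0.793 and SRC at 9.74 ± 1.41 RPKM.

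Subunits that form receptors were then compared within each library as the log2 ratio of RPKM + 0.01, with an exact two-sided permutation test over all 256 sign patterns of the 8 libraries, whose smallest possible p is 0.00781. Of 24 subunit pairs, 12 could be tested because both partners were detected, and 10 pairs of adaptors brought the total to 22, over which p was adjusted by the Benjamini-Hochberg method. The ratio differed from 0 in 19 of 22 pairs, each with all 8 libraries on the same side. Each had an adjusted p of 0.00905 in that exact test. The test asks only whether the partners differ in level. Any pair of genes with all 8 libraries on the same side reaches its smallest p. Other pairs of genes were not tested, so the count of 19 cannot be called particular to these members. A ratio of transcripts is not a ratio of receptors at the surface, which was not measured.

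ITGA5 was the alpha subunit whose level lay nearest to that of ITGB1. The log2 ratio of ITGA5 to ITGB1 was -0.32 ± 0.35, below 0 in 6 of 8 libraries and at 0.14 and 0.17 in replicates 7 and 8. The exact permutation test gave p = 0.0547 (adjusted 0.0573, n = 8). With the length taken over all annotated exons instead of the canonical transcript the sign turned, to 0.84 with adjusted p = 0.00905, so the order of these genes per length depends on the transcript model. Without replicate 8 the ratio was -0.39, with an adjusted p of 0.0469 in the exact permutation test.

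Every other tested partner was below ITGB1. The log2 ratio was -1.81 ± 0.47 for ITGA3, -2.92 ± 0.44 for ITGAV, -3.44 ± 0.14 for ITGA6, -4.37 ± 0.45 for ITGA2 and -4.72 ± 0.38 for ITGA10. It was -6.08 ± 0.32 for ITGA1, -7.59 ± 0.41 for ITGA7 and -9.01 ± 0.37 for ITGA11. The ratio of ITGA6 to ITGB1 had the smallest SD of these pairs, 0.14, where the log2 RPKM of each gene had an SD of 0.43 and 0.36. The summed RPKM of the 12 alpha subunits that pair with ITGB1 exceeded ITGB1 in 8 of 8 libraries. That log2 ratio was 0.53 ± 0.25 (0.28 to 0.92), or 1.44-fold, with p = 0.00781 in the exact permutation test, the smallest it can give. It became 0.35 over the 5 libraries other than replicates 2, 7 and 8, where the smallest p is 0.0625, and 1.71 with the length over all annotated exons.

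**Figure D2:**
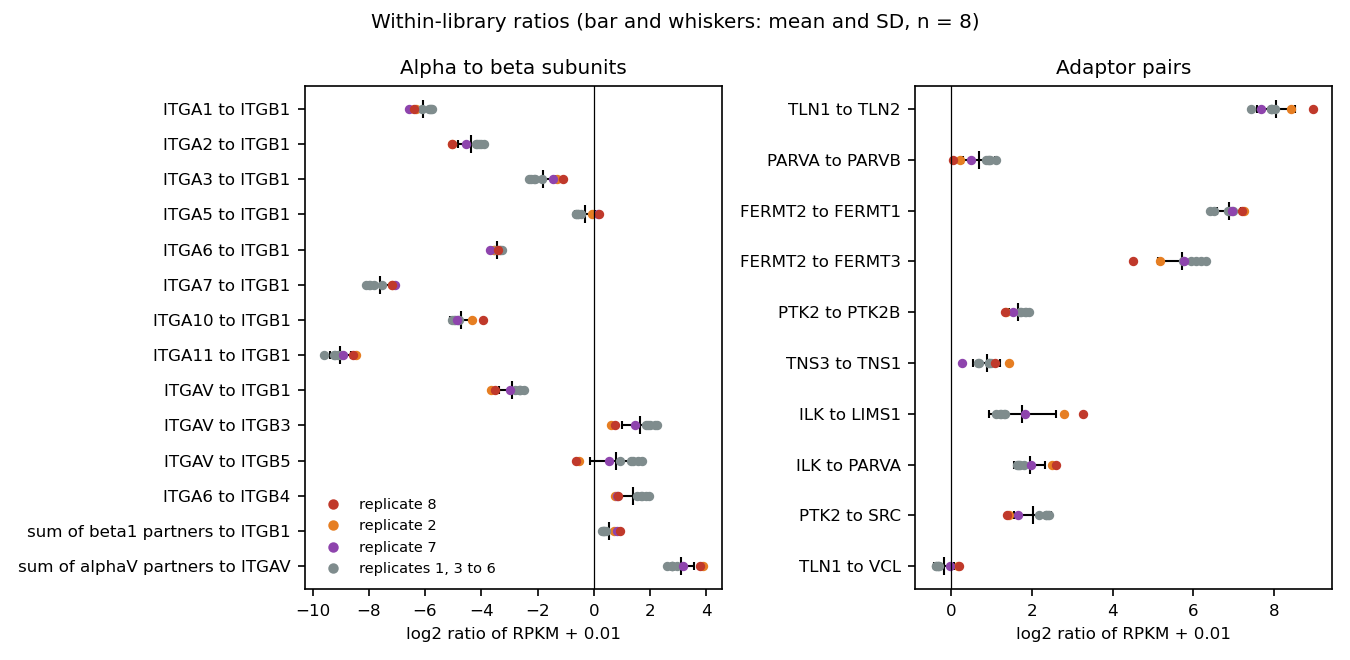
Log2 ratio of RPKM + 0.01 within each of the 8 libraries for 12 alpha to beta pairs, the 2 sums (left) and 10 adaptor pairs (right); the vertical bar is the mean and the whiskers the SD, and colours mark replicates 2, 7 and 8. ITGA5 to ITGB1, ITGAV to ITGB5 and TLN1 to VCL have libraries on both sides of 0, and the other 19 pairs do not.

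ITGAV exceeded ITGB3 by 1.63 ± 0.62 on the log2 scale in 8 of 8 libraries, but with the length over all annotated exons by 0.37 in 6 of 8, with adjusted p = 0.139 in the exact permutation test. Against ITGB5 the ratio was 0.79 ± 0.92, above 0 in 6 of 8 libraries and at -0.52 and -0.63 in replicates 2 and 8, with p = 0.0547 in the exact permutation test. This wide spread came with an SD of 0.79 in ITGAV and 0.14 in ITGB5 on the log2 RPKM scale. With the length over all annotated exons the mean was -0.11. It was 0.66 on the authors' corrected values and 1.46 on CPM with no length, each above 0 in 8 of 8 libraries with adjusted p = 0.00955 in the exact permutation test. Without replicate 2 it was 0.98 and without replicate 8 it was 0.99, with adjusted p of 0.0491 and 0.0344 in the exact permutation test. The 5 beta partners of ITGAV together exceeded it by 3.09 ± 0.48 in 8 of 8 libraries. Most of their sum was ITGB1 (406 RPKM, against 30.4 for ITGB5 and 17.1 for ITGB3), which other alpha subunits share. ITGB6 and ITGB8 were not detected, and the sum without ITGB1 was not compared with ITGAV. ITGA6 exceeded ITGB4 by 1.39 ± 0.51.

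A single talin and a single kindlin dominated. TLN1 exceeded TLN2 by 8.03 ± 0.47 on the log2 scale, FERMT2 exceeded FERMT1 by 6.89 ± 0.30 and FERMT3 by 5.71 ± 0.59, and PTK2 exceeded PTK2B by 1.66 ± 0.23. The parvins and tensins were closer. PARVA to PARVB was 0.70 ± 0.39, falling to 0.06 in replicate 8, and on the authors' values corrected for length and GC content it was 0.15 with adjusted p = 0.237 in the exact permutation test. TNS3 to TNS1 was 0.88 ± 0.34. ILK exceeded LIMS1 by 1.77 ± 0.82, with 2.81 and 3.27 in replicates 2 and 8, and exceeded PARVA by 1.94 ± 0.39. On CPM with no length the first ratio was 0.46, above 0 in 5 of 8 libraries with adjusted p = 0.237 in the exact permutation test, and the second turned to -0.35. TLN1 to VCL was -0.17 ± 0.24, below 0 in 6 of 8 libraries, with p = 0.102 in the exact permutation test. The sign of that ratio turned on the authors' corrected values (0.17), on CPM with no length (0.48) and with the length over all annotated exons (0.49). Without replicate 2 or 8 it was -0.22, with adjusted p of 0.0491 and 0.0469 in the exact permutation test.

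Which members varied more than genes of their abundance did was asked by a goodness-of-fit test on edgeR's dispersion trend, over all 11980 detected genes with Benjamini-Hochberg adjustment. It called 3 of the 35 detected members (8.57%), against 4.66% of all genes. All 3 were alpha subunits, ITGA1, ITGA2 and ITGAV. No beta subunit was called (0 of 5, and 0 at an unadjusted p under 0.05) and no adaptor (0 of 20, and 3 at an unadjusted p under 0.05). With the dispersion trend of DESeq2 in its place, 11 members were called (CRK, FERMT1, ITGA1, ITGA2, ITGA6, ITGAE, ITGAV, LIMS1, TLN2, TNS1 and VASP), against 23.5% of all genes.

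ITGAV was measured at 574, 164, 523, 529, 426, 611, 314 and 159 CPM in replicates 1 to 8. Replicates 2 and 8 were far below the others and replicate 7 lay between. Its mean was 412 ± 180 CPM, the highest value was 3.84 times the lowest, and the adjusted p from edgeR was 0.00142. ITGA2, the collagen-binding platelet and endothelial subunit, gave 221, 70.1, 241, 229, 180, 225, 116 and 62.1 CPM. The same libraries, 8, 2 and then 7, were low, with a highest value 3.87 times the lowest and an adjusted p from edgeR of 0.00119. ITGA1, another collagen receptor subunit, gave 99.6, 39.2, 84.9, 89.6, 64.3, 97.6, 39.5 and 32.9 CPM, also lowest in replicates 8, 2 and 7, with an adjusted p from edgeR of 0.0219.

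The calls of ITGA2 and ITGAV held with any 1 library left out (adjusted p from edgeR 0.00221 to 0.0153 and 0.00212 to 0.0302). Replicates 2, 7 and 8 were the lowest for both genes, so leaving them all out was bound to narrow the spread. Only 5 libraries then remain, so the loss of these 2 calls decides nothing further. Without replicates 2, 7 and 8, adjusted p from edgeR was 0.789 for ITGA2, 0.275 for ITGAV and 0.0107 for ITGA1, and ITGB3 was called at 0.0449, against 2.42% of all genes. The ITGA1 call was lost without replicate 1 (0.0613), replicate 6 (0.0572) or replicate 7 (0.0820). Once each library's trend with transcript length was removed, ITGA1 was not called (0.776) and PARVB was, beside ITGA2 and ITGAV, against 5.29% of all genes.

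The members' values in replicate 8 moved with the make-up of their transcripts. ITGAV, ITGA2 and ITGA1 have canonical transcripts of 7039, 7843 and 10736 nt with 38.3%, 40.1% and 38.7% GC, whereas that of ITGA5, which was steady, has 4250 nt and 58.0% GC. Over the 35 detected members, the difference of replicate 8 from each gene's own mean (log2 CPM) had a Pearson r of 0.70 with GC content and -0.61 with length (Spearman 0.69 and -0.55). The points share 1 library and its depth, and over 11591 detected genes with a length the same r was 0.58 and -0.62. In replicate 2 the members' r was 0.75 with GC content and -0.45 with length, against 0.62 and -0.57 over all those genes. In replicate 7 it was 0.65 and -0.36, against 0.34 and -0.45. The part of transcript make-up in the differences between libraries was not tested.

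**Figure D3:**
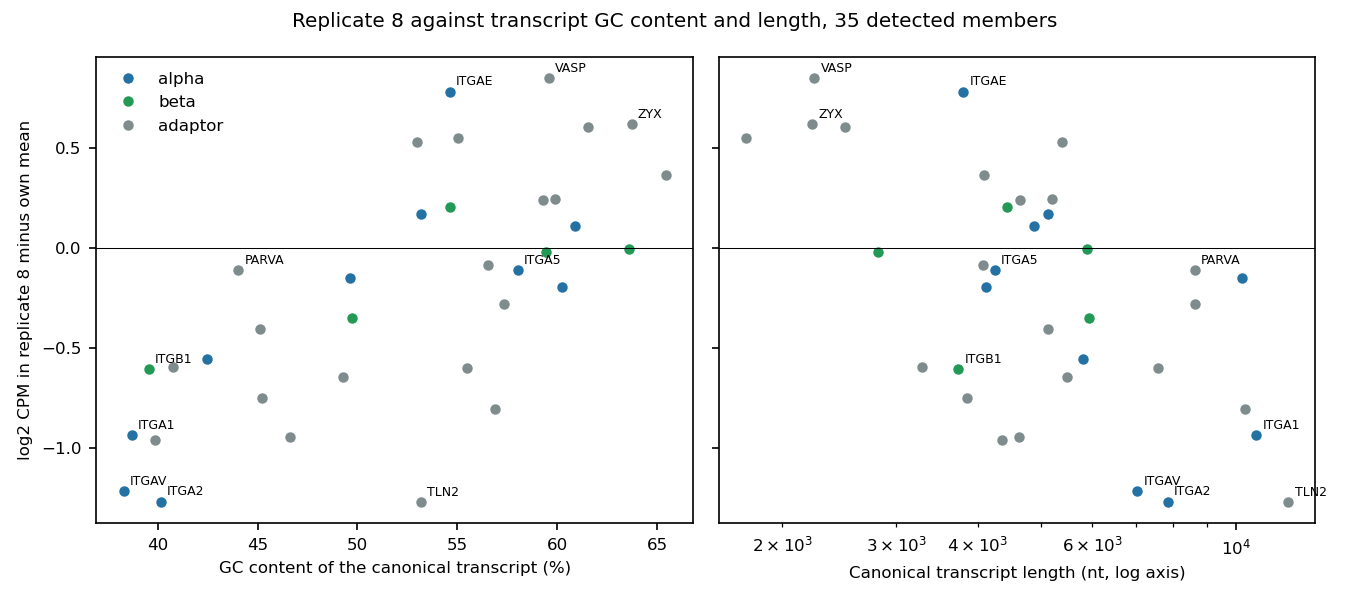
Difference of replicate 8 from each gene's own mean over 8 libraries (log2 CPM) for the 35 detected members, against the GC content (left, %) and the length (right, nt, log axis) of the canonical transcript; points are genes, coloured by class. ITGAV, ITGA2 and ITGA1 lie at the lower left of the GC plot, and VASP and ZYX, with shorter and GC-richer transcripts, lie above 0.

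Replicate 8 held the lowest value of 17 of the 35 members (48.6%), against 31.1% of all detected genes, and the highest of 8 members (22.9%), against 36.0% of all detected genes. On log2 CPM the largest falls below a gene's own mean there were -1.27 in ITGA2, -1.27 in TLN2 and -1.21 in ITGAV, and the largest rises were 0.85 in VASP and 0.78 in ITGAE. Of the 35 members, 28 had a smaller SD on the authors' corrected log2 values than on log2 CPM. The median SD over members went from 0.30 to 0.19, and that over all detected genes from 0.28 to 0.16. ITGA2 stayed low in replicates 2 and 8 on the corrected scale (-0.52 and -0.50), as did ITGAV (-0.67 and -0.52), and ITGA1 was lowest in replicate 7 (-0.58).

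The scales did not give every gene the same direction. In replicate 8 the sign was the same on both scales for 30 of 35 members, and ITGA3, ITGB5, PARVA, SRC and ZYX were the exceptions. ZYX, at 0.62 above its mean on log2 CPM, was at -0.07 on the corrected scale. PARVA went from -0.11 to 0.58, and its SD grew from 0.11 to 0.34. The SD of ITGA5 grew from 0.13 to 0.24, so its steady CPM is not matched on the corrected scale.

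**Figure D4:**
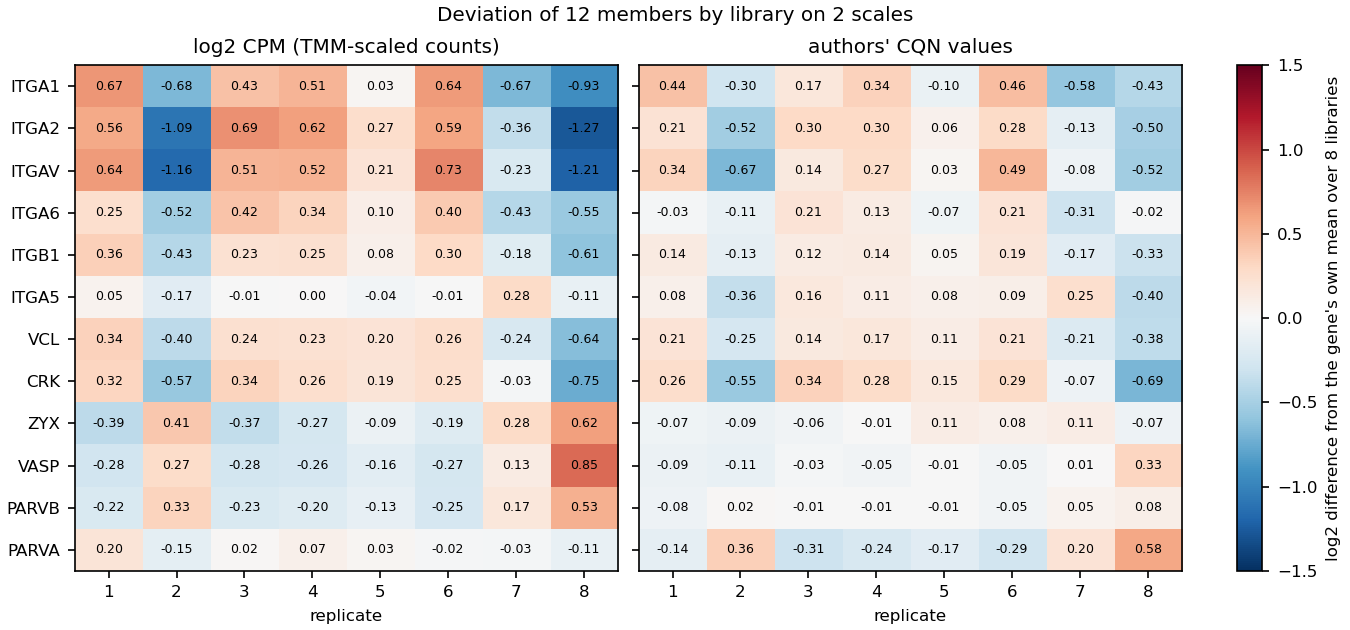
Difference of each library from the gene's own mean over 8 libraries for 12 members, on log2 CPM (left) and on the authors' corrected log2 values (right); columns are replicates, red is above and blue below the mean, and each cell prints its value. ITGA1, ITGA2 and ITGAV are blue in replicates 2, 7 and 8 on both scales, whereas ZYX is red there on the left and near 0 on the right.

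The genes around the adhesion were described by 4 lists with 89 genes. Over all genes 51.3% were detected, and 4.66% of the detected genes were called above the variation trend. The lists are small, and none was tested against these shares. Of 30 integrin ligands, 21 were detected. CYR61, a secreted matrix-bound ligand, had 773 ± 123 RPKM, the fibronectin gene FN1 655 ± 233 and THBS1, thrombospondin, 476 ± 166 RPKM. The variation test called 2 of these 21 (9.52%), EDIL3 and FBN1, both lowest in replicate 8. EDIL3 had 25.3 to 222 CPM (adjusted p from edgeR 2.19e-08) and FBN1 110 to 418 CPM (adjusted p from edgeR 0.00914).

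Of 15 integrin activators and inhibitors, 14 were detected. The tetraspanins CD9 (912 ± 88.0 RPKM) and CD151 (244 ± 58.6 RPKM), which associate with integrins in the membrane, and the syndecan SDC4 (76.2 ± 7.94 RPKM) led. APBB1IP, the RIAM adaptor that brings talin to the membrane in blood cells, was the undetected gene, with 0 counts in 6 libraries, each with a limit of at most 0.0840 CPM. SHARPIN, an integrin inhibitor, was the gene called above the trend (1 of 14, or 7.14%, against 4.66% of all genes). It had 32.0 to 88.7 CPM, with its highest value in replicate 8 (adjusted p from edgeR 0.0472).

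Of 24 further adhesion adaptors, 20 were detected, and CASS4, EFS, PARVG and TNS4 were not. The actin crosslinkers FLNA (278 ± 30.3 RPKM), ACTN1 (197 ± 22.9 RPKM) and ACTN4 (154 ± 14.3 RPKM) were the most abundant. LPP, a relative of zyxin, was the 1 of 20 called (5%), at 40.4 to 169 CPM (adjusted p from edgeR 5.18e-04). All 20 adhesion signalling enzymes were detected, and 2 of them (10%) were called above the trend, against 4.66% of all genes. The GTPases RHOA (508 ± 32.5 RPKM) and RAC1 (225 ± 22.0 RPKM) led with the phosphatase PTPN12 (46.4 ± 9.36 RPKM).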

How the data were processed

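Polyadenylated RNA of 8 hCMEC/D3 replicates was sequenced with a TruSeq kit, per the labels. The submitters' processing notes name CASAVA 1.9, TopHat2 2.0.6, HTSeq and hg19. The authors deposited 1 table with raw counts per gene. All 186768 were even, so the limits for counts of 0 were taken on halved counts. The variation test used the counts as deposited, and on halved counts it called the same 3 members (ITGA1, ITGA2 and ITGAV). For 13962 of 23346 genes the table held log2 CQN-normalised values, which the authors corrected for length and GC content per the file headers. Columns were matched by replicate number, with 0 other columns of per-sample values.

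Counts were scaled with edgeR 4.0.16 (TMM) in R 4.3.3. Lengths and coordinates (GRCh37, 1-based) follow the canonical GENCODE 44 transcript. In simulated counts the variation test called 0 of 11834 genes with none changed, and 173 of 198 raised 4-fold in 1 library. These counts were drawn for each gene separately, at the depth of halved counts, from the dispersion trend that the test assumes. They lack the libraries' trends with length and GC content, so they do not measure false calls in the real data. DESeq2 1.42.0 size factors and trend, other filters, pseudocounts (0.1, 1) and lengths, and left-out libraries were tried. The members and lists were chosen with earlier results of these data known. All members are named, and of each of the 4 pathway lists the 3 highest by RPKM, the undetected genes where 5 or fewer, and the called genes except those of the signalling enzymes, which are not reported here. Protein sequences were not used here.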

Additional observations from a re-analysis of the deposited data

Results flagged for a closer look

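Over 59 checks for a library far from the others among the members' levels and ratios, 3 stood apart by Dixon's criterion for 8 samples (the ratio of its gap from the nearest library to the whole range). Chance flags about 1 in 20 such groups. ITGA5 reached 1637 CPM in replicate 7, against 1193 to 1392 CPM in the other 7 libraries. VASP reached 254 CPM in replicate 8, where the others lay between 116 and 170 CPM. FERMT3, whose gene overlaps TRPT1, reached 5.18 CPM in replicate 8, with 2.70 to 3.70 CPM in the others.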

How the results depend on the processing

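With 1 library left out at a time, 35 to 36 members were detected and 19 to 22 pairs passed 0.05. Above the variation trend 2 to 3 members were called (5.71% to 8.57%), against 3.15% to 4.09% of all genes. The ITGA5 share was 54.2% to 55.6%. The log2 ratio of the summed partners was 0.47 to 0.56 for ITGB1 and 2.97 to 3.15 for ITGAV. Without replicates 2, 7 and 8 those log2 ratios were 0.35 and 2.78 and 0 pairs passed, because 5 libraries cannot give a p under 0.0625 in the exact permutation test. The DESeq2 trend called 11 members (31.4%, against 23.5% of all genes). The ITGA5 share was 47.2% on CPM with no length and 51.0% on the authors' corrected values. Signs turned in 6 cases. With all annotated exons, ITGA5 to ITGB1 became 0.84, ITGAV to ITGB5 -0.11 and TLN1 to VCL 0.49. ILK to PARVA became -0.35 and TLN1 to VCL 0.48 on CPM with no length, and the latter 0.17 on the corrected values. Removing length and GC trends together, chosen after seeing the data, called ITGA2, ITGAV, PARVB and TNS1 (11.4% of members, against 6.64% of all genes). Of the further values for single genes and pairs, 1308 kept their direction and side of the threshold, 24 moved, 19 gained a call and 29 lost one. No paired analysis was possible because all 8 samples form 1 group. The causes of these changes were not tested. Levels well under 1 CPM rest on few read pairs (3 read pairs made 0.0880 CPM in replicate 1).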
